A study of Homo sapiens with 9 samples.

Results

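The 43 genes described here encode proteoglycans and matrix glycoproteins, the non-collagenous proteins of the extracellular matrix and of the cell surface that holds it. They were chosen by name, and all 43 were found among the 70116 gene IDs of the count table. Of these, 37 had enough counts to be tested, among 19408 genes tested in all. The counts come from poly(A)-selected RNA of U2OS, an established human osteosarcoma cell line, in 9 libraries. They form 3 groups of 3 libraries: a vehicle group of wild-type cells, wild-type cells kept on palbociclib for 4 days, and cells that lost PERK through CRISPR/Cas9 and were kept on palbociclib for 4 days. Palbociclib inhibits the cell cycle kinases CDK4 and CDK6, and PERK, encoded by EIF2AK3, is a stress-sensing kinase of the endoplasmic reticulum. Knockout cells without palbociclib were not analysed here, so genotypes are compared only on palbociclib, and an interaction of genotype with the drug was not tested. Whether the knockout cells are 1 clone or a pool is not given in the sources used here. Each library carries a set number, 1 to 3, that recurs in every group. Nothing in the labels says that sets are separate cultures, so p-values rest on the spread of the libraries at hand, and that spread may be technical.

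Proteoglycans are core proteins that carry long sulfated sugar chains, such as chondroitin and dermatan sulfate, heparan sulfate or keratan sulfate. Small leucine-rich proteoglycans bind and space collagen fibrils, aggrecan and versican are held on hyaluronan by link protein, and syndecans and glypicans present growth factors at the cell surface. Fibronectin, fibrillins, fibulins, laminins and nidogens build the fibrillar, elastic and basement membrane networks, and bone-forming cells secrete SPARC (osteonectin) and small leucine-rich proteoglycans into the collagen matrix that later mineralises.

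Totals ran from 33674039 to 42577874 counts per library. Levels are given in CPM, counts scaled to a common library size with edgeR's TMM factors, with the mean ± SD of 3 libraries. The targeted gene was detected in every library. EIF2AK3 had 31.7, 34.8 and 32.8 CPM in vehicle sets 1 to 3, 35.7, 36.8 and 31.8 CPM in wild-type cells on palbociclib, and 19.7, 18.7 and 17.8 CPM in knockout cells. The knockout libraries lay below all others (log2 fold change -0.89 ± 0.07 SE against wild-type cells on palbociclib, adjusted p = 5.98e-09). The sources used here do not give where the cut lies in the gene, and this level checks the labels only in part. Of 8 osteoblast lineage markers, COL1A1 was abundant at 2467 to 4527 CPM in group means and RUNX2 stood at 29.5 to 38.8 CPM. COL1A2 had 1.42 to 2.87 CPM and SPP1 5.15 to 11.2 CPM, BGLAP and IBSP were near 0, and SP7 was at 0 in every library. ALPL, alkaline phosphatase, had 2.78, 7.93 and 5.03 CPM in vehicle, wild-type palbociclib and knockout cells, higher on the drug (adjusted p = 1.76e-07) and lower in knockout cells (adjusted p = 0.0016). COL1A1 and COL1A2 were also higher on the drug (adjusted p = 0.00365 and 0.0119) and RUNX2 was lower in knockout cells (adjusted p = 0.0202). SPP1 was called higher on the drug only with the set number in the fit as a block (adjusted p = 0.051, or 9.64e-12 with the block). COL1A2 was called higher in knockout cells only with this block (adjusted p = 0.113, or 0.0444). Haematopoietic and endothelial markers were low: the 7 haematopoietic markers summed to 0.228 to 0.664 CPM per library, and the 6 endothelial markers to 6.43 to 8 CPM. The 7 chondrocyte markers summed to 101 to 164 CPM per library. SOX9 made up most of this, at 126, 98.2 and 92 CPM in vehicle, wild-type palbociclib and knockout cells. MATN3 had 15.9 to 22.5 CPM in group means, and COL2A1, COL9A1, COL11A2, MATN1 and CNMD were under 1 CPM. The 7 epithelial markers summed to 32.4 to 34.9 CPM in wild-type libraries and to 21.1 to 22.9 CPM in knockout libraries. CLDN4 made up most of this, at 23, 21.1 and 13.8 CPM in vehicle, wild-type palbociclib and knockout cells, while CDH1 had 1.62, 3.63 and 2.13 CPM. Of the 6 tested, 2 were called higher and 0 lower on the drug (all genes 21.3% and 22.3%). Between genotypes, 0 were called higher and 3 lower in knockout cells (all genes 14.9% and 13.0%). The part of these markers' differences in the members' results was not tested.

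The 43 members together took 0.801 to 0.915% of all counts in the vehicle libraries, 1.07 to 1.22% in wild-type cells on palbociclib and 1.06 to 1.22% in knockout cells. Their summed levels were 8018, 9090 and 8827 CPM in vehicle sets 1 to 3, 10666, 11697 and 12108 CPM in wild-type cells on palbociclib, and 10785, 12500 and 12314 CPM in knockout cells. All 6 palbociclib libraries thus lay above the 3 vehicle libraries, and the genotypes overlapped. Without SPARC and FN1, which encodes fibronectin, the other 41 members summed to 5675 to 6460 CPM on vehicle and to 6636 to 7898 CPM on the drug. In these bulk samples, fewer cells of a kind and less RNA per cell cannot be told apart.

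**Figure D1:**
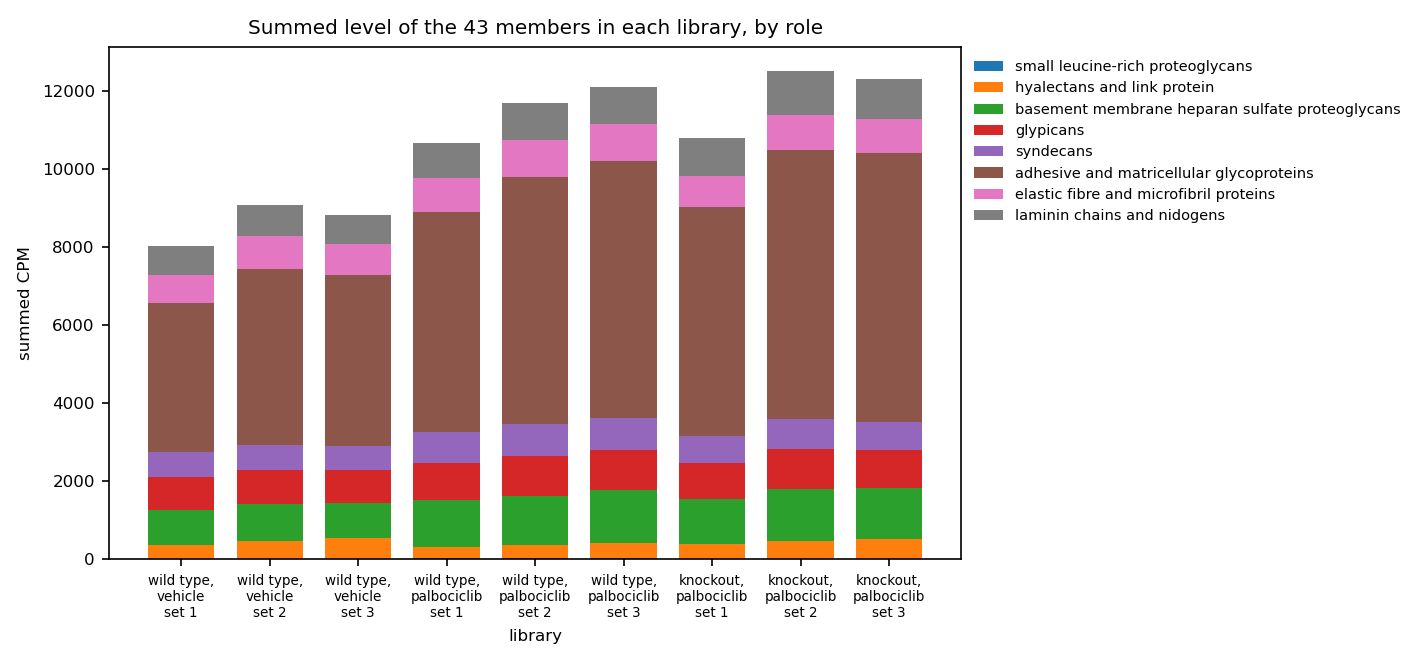
Summed CPM (vertical axis) of the 43 members in each of the 9 libraries (horizontal axis), stacked by role. The 6 palbociclib libraries reach 10666 to 12500 CPM and the 3 vehicle libraries 8018 to 9090 CPM, and adhesive and matricellular glycoproteins form the largest block in each.

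Divided by exon length, so that genes can be compared, SPARC was the most abundant member in every group, at 359, 565 and 638 CPM per kilobase of exon in vehicle, wild-type palbociclib and knockout cells. GPC1, a glypican, was next in both palbociclib groups, at 128 and 124 CPM per kilobase. On vehicle EDIL3, an integrin-binding glycoprotein, was next at 116 CPM per kilobase, ahead of GPC1 at 108. FN1, THBS1, SDC4, AGRN, LAMC1 and HAPLN1 each ranked among the top 6 in at least 1 group. At the other end, OGN and ASPN, small leucine-rich proteoglycans, had 0 counts in all 9 libraries. DCN (decorin), FMOD, THBS2 and ELN (elastin) were too low to be tested with all 9 libraries, with 5 to 10 counts summed over the vehicle libraries. Decorin, the prototype of its family, had 8, 33 and 15 counts in the 3 groups, and ELN had 10, 3 and 7 counts.

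**Figure D2:**
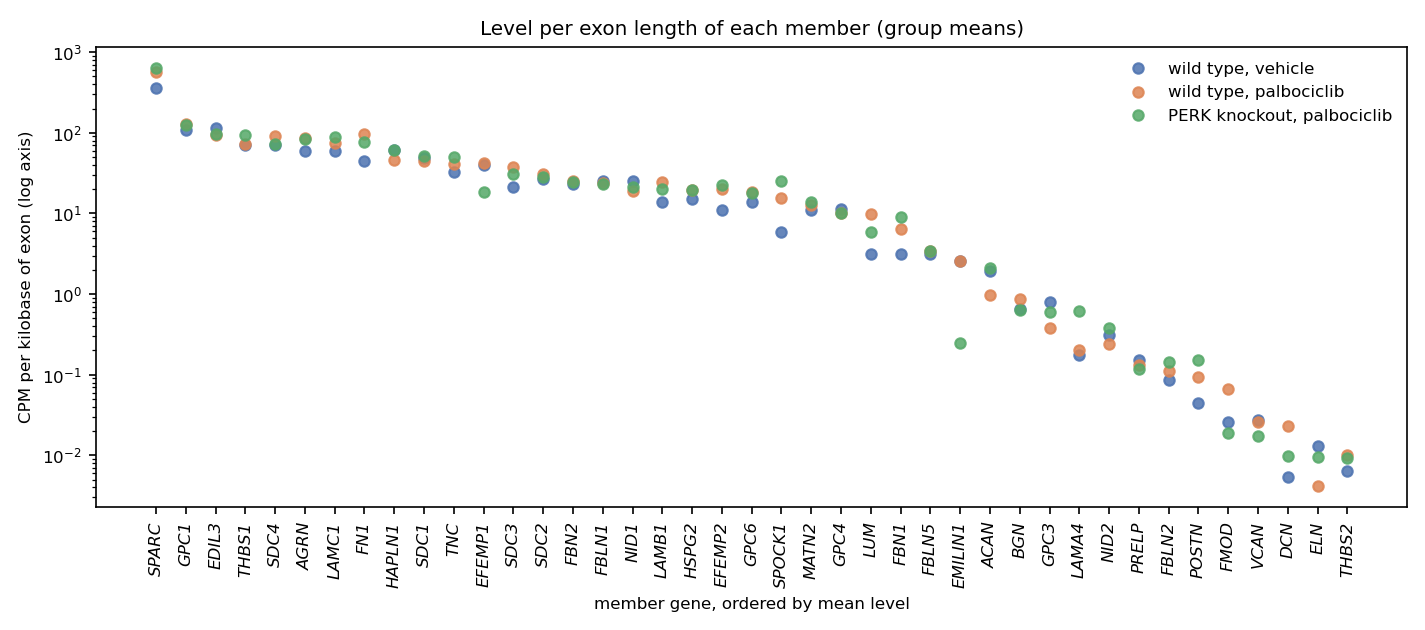
Group mean level of each member in CPM per kilobase of exon (vertical log axis), ordered by mean level (horizontal axis), with 1 colour per group; OGN and ASPN, at 0, are not drawn. Levels span from 638 CPM per kilobase for SPARC in knockout cells to 0.00418 for ELN in wild-type cells on palbociclib.

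On palbociclib, wild-type cells had more RNA for 16 of the 37 tested members and less for 3 than vehicle-treated cells did, by edgeR's quasi-likelihood test at a Benjamini-Hochberg adjusted p under 0.05. Of all genes tested, 21.3% were called higher and 22.3% lower, or 43.7% in either direction. The median log2 fold change was 0.24 over the members and -0.02 over all genes. Of the 16 that rose, 4 changed at least 2-fold (LUM, SPOCK1, FN1 and FBN1), against 4.03% of all genes, and of the 3 that fell, GPC3 did so, against 1.47% of all genes. The libraries of the 2 groups did not overlap for 22 members, and for 51.6% of all genes. Fitted with the set number as a block, the same comparison called 19 members higher and 7 lower. For the group comparisons, here and below, the shares of all genes are from the fit without the block. Counts made with the block therefore have no share to be read against.

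Between genotypes on palbociclib, 11 of 37 members were higher in knockout cells and 5 lower, where 14.9% and 13.0% of all genes were called, or 27.9% in either direction. The members' median log2 fold change was 0.00 and that of all genes 0.01. At least 2-fold differences were found for ACAN and LAMA4, which were higher (1.21% of all genes), and for EFEMP1 and EMILIN1, which were lower (1.81% of all genes). The libraries did not overlap for 19 members, and for 41.3% of all genes. With the set as a block, 15 members were called higher and 8 lower, without a blocked share of all genes.

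Knockout cells on palbociclib, set against wild-type cells on vehicle, had 19 members higher and 3 lower, where 25.7% and 26.0% of all genes were called, or 51.7% in either direction. At least 2-fold differences were found for 5 that were higher (6.05% of all genes) and 2 that were lower (2.91% of all genes), and the libraries did not overlap for 24 members (58.5% of all genes). The members' median was 0.32 and that of all genes -0.01. This comparison shares its libraries with the other 2, so it adds no separate evidence. With the set as a block it called 19 members higher and 7 lower, also without a blocked share of all genes.

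**Figure D3:**
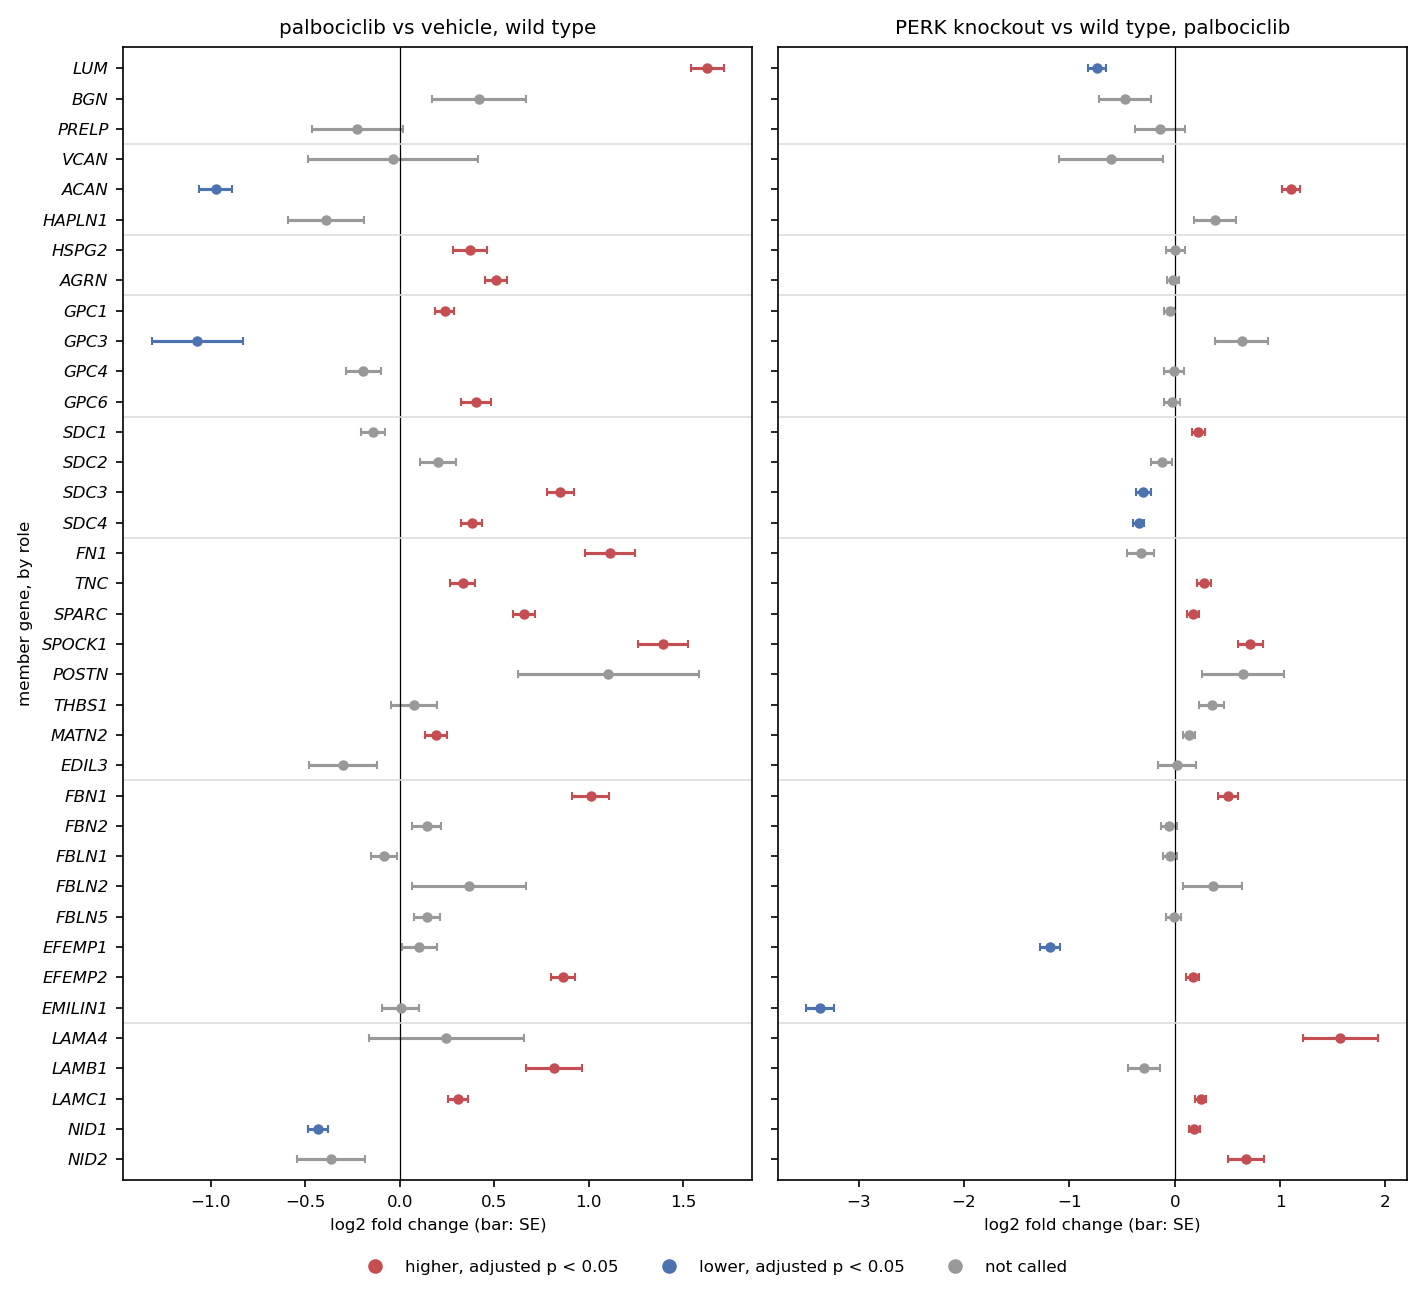
Log2 fold change (horizontal axes, bars show the SE) of the 37 tested members, grouped by role, for palbociclib against vehicle in wild-type cells and for knockout against wild-type cells on palbociclib. Most called members lie right of 0 on the left, and EMILIN1 stands apart at -3.37 on the right.

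Side by side, 6 members were higher on the drug and higher again in knockout cells: TNC, SPARC, SPOCK1, FBN1, EFEMP2 and LAMC1. LUM, SDC3 and SDC4 were higher on the drug and lower in knockout cells. ACAN and NID1 were lower on the drug and higher in knockout cells. HSPG2, AGRN, GPC1, GPC6, FN1, MATN2 and LAMB1 were higher on the drug and GPC3 was lower, with no call between genotypes. SDC1, LAMA4 and NID2 (higher) and EFEMP1 and EMILIN1 (lower) were called between genotypes and not on the drug. Neither comparison called the other 13 tested members. These patterns come from the fit without the set as a block. With the block, HAPLN1, GPC4, SDC2, POSTN, THBS1, EDIL3 and FBN2 of these 13 were called in at least 1 of the comparisons. The block also called SDC1 on the drug, and GPC3, FN1, MATN2 and LAMB1 between genotypes. Both comparisons use the wild-type palbociclib libraries, so a shift in those libraries moves the values of both in opposite directions.

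Promoter sequence is shown for 3 members past 2-fold, because FN1 and FBN1 rose together on the drug while ACAN fell with it and was higher in knockout cells. The letters are from RefSeq (GRCh38.p14), 5′ to 3′ on the gene's strand, within the 250 bases before the RefSeq start, and capitals mark motif matches. FN1 (chr2:215436173-215436318, minus strand) is shown for the 146 bases that lie outside FN1 exons of GENCODE 29. FBN1 (chr15:48644971-48645220, minus strand) lies within the longer GENCODE gene model, in no exon. ACAN (chr15:88803186-88803435, plus strand) lies before the annotated gene.
FN1: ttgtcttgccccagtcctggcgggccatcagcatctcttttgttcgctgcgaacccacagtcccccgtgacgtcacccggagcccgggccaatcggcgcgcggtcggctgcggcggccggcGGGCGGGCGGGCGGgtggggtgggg
FBN1: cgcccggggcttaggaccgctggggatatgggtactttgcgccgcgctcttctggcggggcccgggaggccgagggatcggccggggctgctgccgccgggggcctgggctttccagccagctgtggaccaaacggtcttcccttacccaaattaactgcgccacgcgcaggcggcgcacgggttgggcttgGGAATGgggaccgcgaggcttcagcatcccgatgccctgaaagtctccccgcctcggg
ACAN: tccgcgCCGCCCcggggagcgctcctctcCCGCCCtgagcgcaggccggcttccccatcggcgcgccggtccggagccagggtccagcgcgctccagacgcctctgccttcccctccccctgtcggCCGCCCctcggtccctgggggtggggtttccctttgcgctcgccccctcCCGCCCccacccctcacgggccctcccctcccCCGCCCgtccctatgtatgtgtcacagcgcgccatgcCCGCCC
The motifs searched on both strands were the GC box GGGCGG, the TEAD motif GGAATG, the AP-1 motif TGANTCA, the TATA box TATAAA and the SMAD motif CAGACA, with overlapping matches counted. The FN1 stretch holds 3 overlapping GC boxes, starting 129, 125 and 121 bases before the start. The FBN1 window holds 1 TEAD motif, 58 bases before the start, and the ACAN window 6 GC boxes on the other strand. Of the 43 members, 33 had an entry in the RefSeq table, with 38 promoters. A GC box was present in 26 of these 38 (68.4%) and in 42.6% of all 35116 promoters of that length. Member promoters were also richer in G and C, with a median of 68.8% against 58%. The TEAD motif was in 5 of 38 (13.2%, all promoters 11.9%), the SMAD motif in 5 (13.2%, all 13.6%), the TATA box in 7 (18.4%, all 10.7%) and the AP-1 motif in 1 (2.63%, all 6.57%). A match is a description of these letters and not of a factor's binding.

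Among 7 small leucine-rich proteoglycans, 3 had enough counts to be tested, and lumican was called. LUM (chr12:91102629-91111831, GRCh38) encodes lumican, a keratan sulfate proteoglycan that regulates the spacing of collagen fibrils. It had 9.21, 10.1 and 9.19 CPM on vehicle, 25.8, 31.4 and 30.8 CPM in wild-type cells on palbociclib and 18.9, 18 and 15.9 CPM in knockout cells. The 3 groups did not overlap, with knockout cells between the others. LUM rose 3.09-fold on the drug (log2 1.63 ± 0.09, adjusted p = 4.36e-11), and was 0.599 times the wild-type level in knockout cells (log2 -0.74 ± 0.08, adjusted p = 1.03e-06). It stayed higher in drug-treated knockout cells than on vehicle (log2 0.89, adjusted p = 7.31e-08). BGN (biglycan) had 1.61 ± 0.50, 2.13 ± 0.24 and 1.56 ± 0.61 CPM in vehicle, wild-type palbociclib and knockout cells, and PRELP stayed under 1 CPM; neither was called in any comparison. DCN, which lies 28.7 kb from LUM on chromosome 12, was not tested with the low-count filter and all 9 libraries. Without the filter it was higher on the drug (log2 2.10, adjusted p = 0.00609) and not called between genotypes (log2 -1.23, adjusted p = 0.164). It also passed the filter in 7 of the 9 fits that left out 1 library, and there it was higher on the drug each time (adjusted p = 0.00512 to 0.0287).

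ACAN (chr15:88803442-88875354), the aggrecan of cartilage, moved opposite to lumican. Its levels were 19.9, 22.7 and 19.9 CPM on vehicle, 10.8, 11.6 and 9.39 CPM in wild-type cells on palbociclib, and 22.4, 24.6 and 21.4 CPM in knockout cells. Every wild-type palbociclib library lay below the other 6, and the vehicle and knockout groups overlapped. ACAN fell to 0.509 of its vehicle level (log2 -0.97 ± 0.09, adjusted p = 2.74e-08) and was 2.15-fold higher in knockout than in wild-type cells on the drug (log2 1.10 ± 0.09, adjusted p = 8.26e-09). Knockout cells on the drug and wild-type cells on vehicle differed by log2 0.13 ± 0.08 (adjusted p = 0.198). HAPLN1, the link protein that fixes aggrecan and versican to hyaluronan, was far more abundant, with 333, 424 and 516 CPM on vehicle, 273, 327 and 370 CPM in wild-type cells on palbociclib, and 362, 423 and 478 CPM in knockout cells. Within every group it was lowest in set 1 and highest in set 3, and the groups overlapped. It was not called on the drug (log2 -0.39 ± 0.20, adjusted p = 0.163) or between genotypes (log2 0.38 ± 0.20, adjusted p = 0.22). With the set as a block both calls were made (adjusted p = 3.84e-10 and 7.67e-10), in the same directions as ACAN. VCAN (versican), next to HAPLN1 on chromosome 5, had 0.259 to 0.405 CPM in group means and was not called.

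Both basement membrane heparan sulfate proteoglycans rose on the drug, and neither was called between genotypes. AGRN (agrin), which also clusters acetylcholine receptors at the neuromuscular junction, had 641, 644 and 646 CPM on vehicle, 875, 899 and 976 CPM in wild-type cells on palbociclib and 827, 953 and 935 CPM in knockout cells. All palbociclib libraries lay above the vehicle libraries (log2 0.51 ± 0.06, adjusted p = 4.98e-07), and the genotypes overlapped (log2 -0.02 ± 0.06, adjusted p = 0.844). HSPG2 (perlecan) rose from 276 ± 25.4 to 358 ± 28.9 CPM (log2 0.37 ± 0.09, adjusted p = 0.00623), with 359 ± 40.2 CPM in knockout cells.

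Glypicans, heparan sulfate proteoglycans anchored by lipid, moved in both directions. GPC1 had 715, 720 and 684 CPM on vehicle, 801, 849 and 849 CPM in wild-type cells on palbociclib and 773, 853 and 791 CPM in knockout cells. The vehicle libraries lay below the other 6 (log2 0.24 ± 0.05 on the drug, adjusted p = 6.89e-04). GPC6 rose from 89.9 ± 8.00 to 119 ± 8.90 CPM (log2 0.40 ± 0.08, adjusted p = 6.55e-04). GPC3, an oncofetal glypican of the X chromosome, was low, with 1.57, 2.26 and 2.72 CPM on vehicle, 0.884, 1.11 and 1.11 CPM in wild-type cells on palbociclib, and 1.12, 1.82 and 1.9 CPM in knockout cells. The wild-type palbociclib libraries lay below all others, by a narrow gap to knockout set 1, and vehicle and knockout overlapped. It fell on the drug (log2 -1.07 ± 0.24, adjusted p = 0.00106). In knockout cells it was higher than in treated wild-type cells by log2 0.63 ± 0.25, which was not called (adjusted p = 0.0612, or 0.0104 with the block). GPC4, 120 kb from GPC3, had 57.2 ± 6.71, 50.1 ± 3.47 and 49.9 ± 5.29 CPM, with log2 -0.19 ± 0.09 on the drug (adjusted p = 0.122, or 0.00112 with the block). Against vehicle, drug-treated knockout cells differed by log2 -0.44 in GPC3 (adjusted p = 0.106, or 0.0296 with the block) and by log2 -0.20 in GPC4 (adjusted p = 0.0984, or 5.57e-04 with the block).

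Of the 4 syndecans, transmembrane heparan sulfate proteoglycans that act as co-receptors, SDC3 and SDC4 rose on the drug and were lower in knockout cells. SDC4, a focal adhesion syndecan, had 197, 180 and 173 CPM on vehicle, 237, 252 and 227 CPM in wild-type cells on palbociclib and 188, 196 and 181 CPM in knockout cells. The wild-type palbociclib libraries lay above the other 6, among which vehicle and knockout overlapped. The change on the drug was log2 0.38 ± 0.06 (adjusted p = 1.19e-05) and that between genotypes log2 -0.34 ± 0.06 (adjusted p = 8.18e-05). Other genes within 5 Mb of SDC4 had a median of log2 -0.18 between genotypes over 100 genes, and the part of this in the SDC4 difference was not tested. SDC3 rose from 149 ± 7.10 to 268 ± 8.71 CPM (log2 0.85 ± 0.07, adjusted p = 1.3e-07) and stood at 218 ± 26.3 CPM in knockout cells (log2 -0.30 ± 0.07, adjusted p = 0.00465). SDC1, the epithelial and plasma cell syndecan, went the other way, with 175 ± 3.87, 159 ± 13.2 and 185 ± 14.5 CPM. It was higher in knockout cells (log2 0.22 ± 0.06, adjusted p = 0.0103), a call lost without set 3 of wild-type palbociclib (adjusted p = 0.088), without set 1 or set 2 of the knockout (adjusted p = 0.0528 and 0.0635), or without all set 1 libraries (adjusted p = 0.0553). On the drug it differed by log2 -0.14 (adjusted p = 0.0768, or 0.0035 with the block). SDC2 had 120 ± 9.30, 138 ± 17.5 and 127 ± 10.5 CPM and was not called. With the block it was called higher on the drug (adjusted p = 0.118, or 1.29e-04 with the block) and lower in knockout cells (adjusted p = 0.385, or 0.019 with the block).

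The adhesive and matricellular glycoproteins held the largest share of the members' counts, and 5 of the 8 tested rose on palbociclib while 0 fell, where 21.3% and 22.3% of all genes did. FN1, the cell-adhesive glycoprotein bound by integrin α5β1, had 691, 860 and 758 CPM on vehicle, 1474, 1712 and 1808 CPM in wild-type cells on palbociclib, and 1105, 1447 and 1443 CPM in knockout cells. The 3 groups did not overlap, with knockout cells in between. FN1 rose 2.16-fold on the drug (log2 1.11 ± 0.13, adjusted p = 2.25e-04). Between genotypes the difference of log2 -0.32 ± 0.13 was not called (adjusted p = 0.111), but was with the set as a block (adjusted p = 1.18e-07).

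SPOCK1 (chr5:136975298-137598379), testican-1, a secreted proteoglycan of the SPARC family, rose by the most after LUM and rose again in knockout cells. It had 29.5, 39.9 and 39.9 CPM on vehicle, 88.3, 99.8 and 98.8 CPM in wild-type cells on palbociclib and 139, 171 and 162 CPM in knockout cells. No libraries of different groups overlapped. The changes were log2 1.39 ± 0.13 on the drug (adjusted p = 3.42e-05) and log2 0.72 ± 0.12 between genotypes (adjusted p = 0.00256), and drug-treated knockout cells stood 4.32-fold above vehicle (log2 2.11 ± 0.13, adjusted p = 1.44e-06). SPARC, a collagen-binding matricellular protein of bone, had 1652, 1770 and 1774 CPM on vehicle, 2556, 2751 and 2887 CPM in wild-type cells on palbociclib and 2894, 3155 and 3200 CPM in knockout cells. Its groups did not overlap either. It rose by log2 0.66 ± 0.06 on the drug (adjusted p = 1.81e-08). The genotype difference was smaller, log2 0.17 ± 0.06 (adjusted p = 0.0252), and was lost in 6 of 18 alternatives. These were scaling to library totals (adjusted p = 0.0612), leaving out set 1 or 2 of wild-type palbociclib (0.145 and 0.0717) or set 2 or 3 of the knockout (0.0955 and 0.118), and leaving out all set 1 libraries (0.0592). Both genes lie on chromosome 5, where other genes within 5 Mb also had medians above 0 between genotypes, log2 0.29 over 137 genes for SPOCK1 and log2 0.23 over 69 genes for SPARC; the part of this in the genotype differences was not tested.

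TNC (tenascin-C), an anti-adhesive hexamer of remodelling tissue, rose from 316 ± 29.5 to 399 ± 22.9 CPM on the drug (log2 0.33 ± 0.07, adjusted p = 5.1e-04) and was at 483 ± 31.5 CPM in knockout cells (log2 0.28 ± 0.07, adjusted p = 0.00399). MATN2 (matrilin-2) rose from 76.6 ± 2.86 to 87.6 ± 2.54 CPM on the drug (log2 0.19 ± 0.06, adjusted p = 0.0104) and differed between genotypes by log2 0.14 (adjusted p = 0.0779, or 0.0219 with the block). THBS1 (thrombospondin-1), an activator of latent TGF-beta, had 638 ± 76.8, 672 ± 51.1 and 858 ± 117 CPM, and its genotype difference of log2 0.35 ± 0.12 was not called (adjusted p = 0.0625, or 2.31e-09 with the block, and also called with DESeq2, with a stricter filter and with only the 6 libraries compared). Against vehicle, drug-treated knockout cells had more THBS1 (log2 0.43, adjusted p = 0.0163, or 0.0552 without set 3 of the knockout). EDIL3 had 664 ± 120, 539 ± 71.2 and 547 ± 73.4 CPM and was not called. Its differences were log2 -0.30 on the drug (adjusted p = 0.219, or 3.76e-08 with the block) and log2 -0.28 in drug-treated knockout cells against vehicle (adjusted p = 0.232, or 1.05e-07 with the block). POSTN (periostin) was under 1 CPM in every group mean and higher in drug-treated knockout cells than on vehicle (log2 1.75 ± 0.44, adjusted p = 0.00286). In wild-type cells its difference on the drug was log2 1.10 (adjusted p = 0.0711, or 0.0215 with the block).

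Among the elastic fibre and microfibril proteins, EMILIN1 and EFEMP1 were the members lowest in knockout relative to wild-type cells. EMILIN1 (chr2:27078567-27086408) encodes a glycoprotein at the interface of elastin and microfibrils. It had 9.16, 10.7 and 10.3 CPM on vehicle, 9.58, 10.7 and 10 CPM in wild-type cells on palbociclib and 1.07, 1.01 and 0.854 CPM in knockout cells, or 1177, 1101 and 114 counts summed per group. The 2 wild-type groups overlapped, and every knockout library lay far below them. The drug changed it by log2 0.01 ± 0.10 (adjusted p = 0.972), and knockout cells had 0.0969 of the wild-type level (log2 -3.37 ± 0.13, adjusted p = 3.64e-13). Other genes within 5 Mb had a median of log2 0.01 over 96 genes. EFEMP1 (fibulin-3, chr2:55865967-55924139) followed the same order, with 132, 156 and 181 CPM on vehicle, 158, 169 and 177 CPM in wild-type cells on palbociclib and 75, 74.5 and 72.2 CPM in knockout cells. Again the wild-type groups overlapped and knockout lay below (log2 0.10 ± 0.09 on the drug, adjusted p = 0.401; log2 -1.19 ± 0.10 between genotypes, adjusted p = 4.08e-06).

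**Figure D4:**
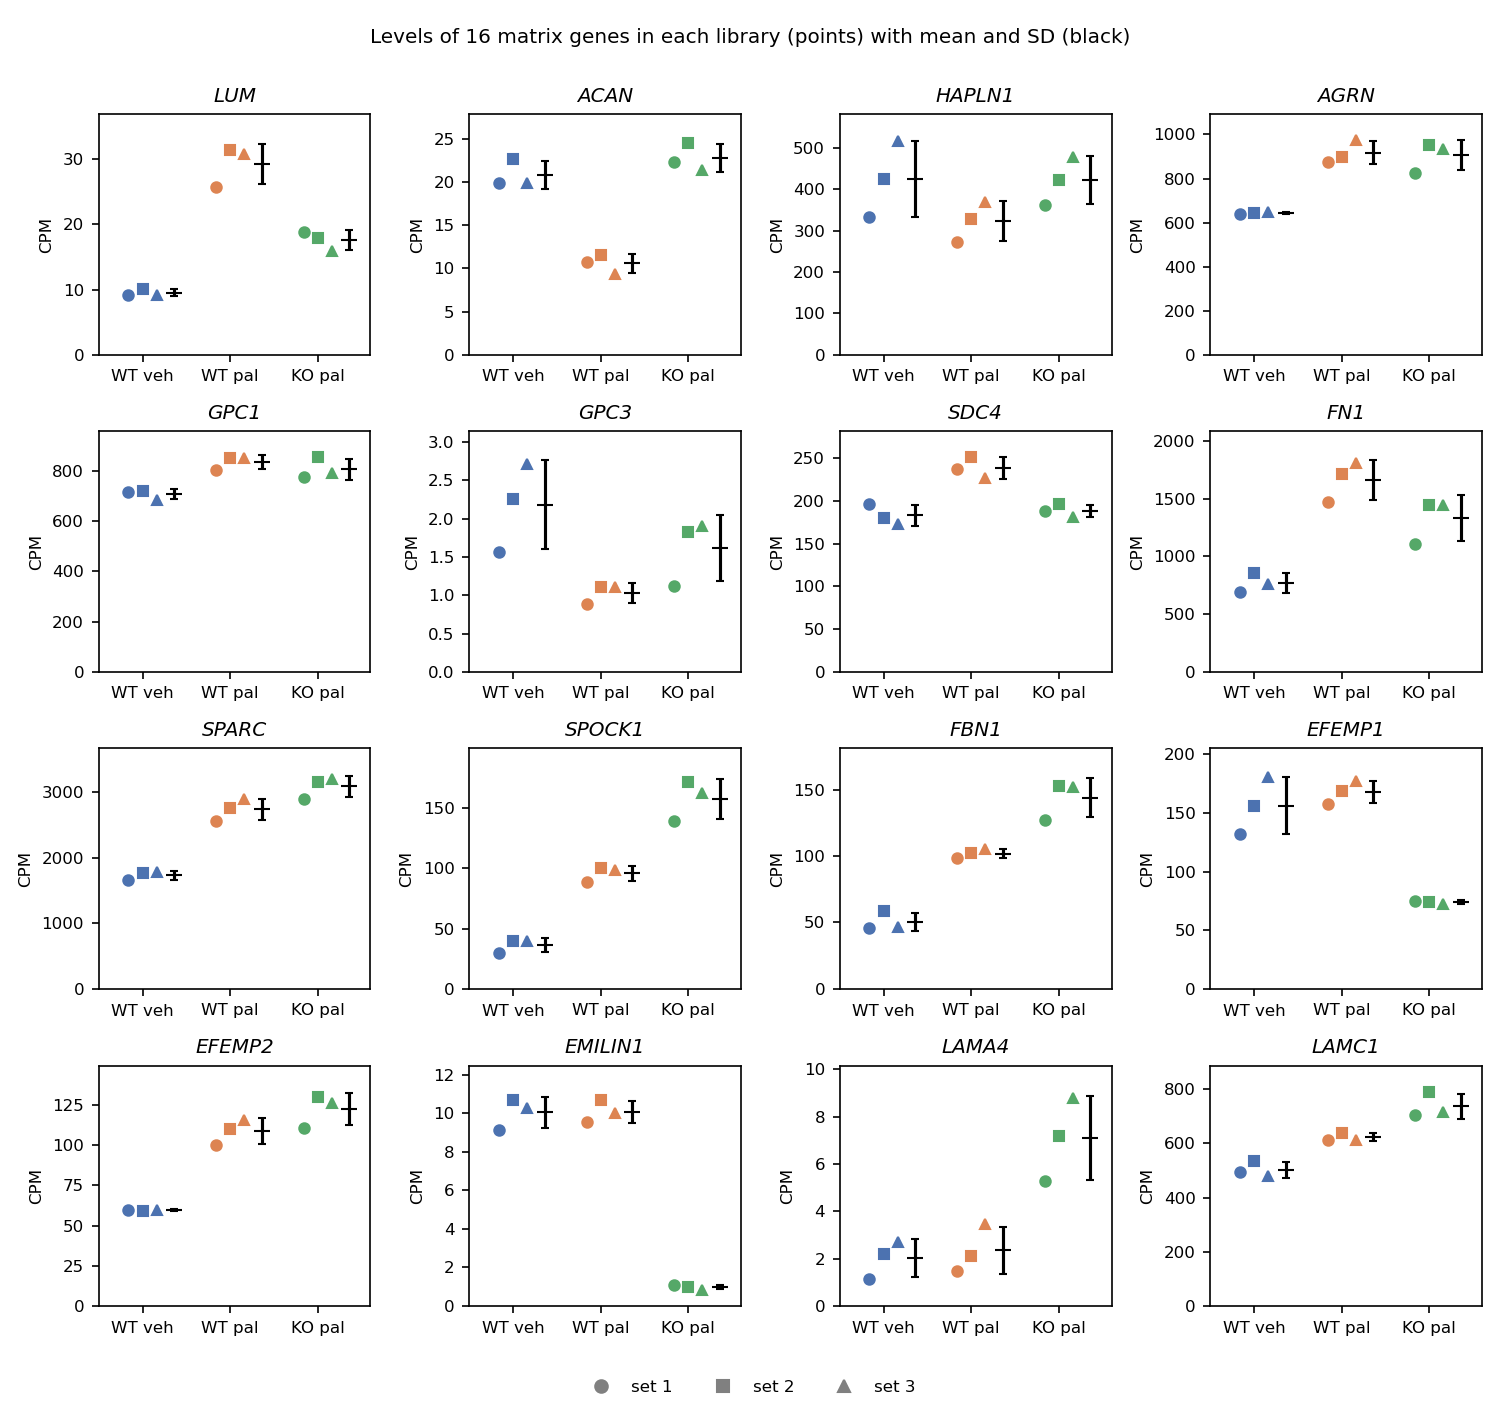
Level in CPM (vertical axes, from 0) of the 16 members given by library, in wild-type vehicle (WT veh), wild-type palbociclib (WT pal) and knockout palbociclib (KO pal) cells; point shapes are sets 1 to 3, and black bars show the mean and SD. LUM, SPOCK1 and FBN1 separate into 3 levels, ACAN in wild-type palbociclib lies below the other 6 libraries, and EMILIN1 and EFEMP1 in knockout lie below the other 6.

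FBN1 (fibrillin-1), the main microfibril subunit and a reservoir of latent TGF-beta, had 45.8, 58.5 and 46.9 CPM on vehicle, 98.2, 102 and 105 CPM in wild-type cells on palbociclib and 127, 153 and 152 CPM in knockout cells. The 3 groups did not overlap. It rose by log2 1.01 ± 0.10 on the drug (adjusted p = 1.03e-05) and was higher again in knockout cells (log2 0.50 ± 0.10, adjusted p = 0.00242), where the 79 other genes tested within 5 Mb had a median of log2 0.21. EFEMP2 (fibulin-4), needed for elastic fibre assembly, had 60, 59.2 and 59.8 CPM on vehicle, 100, 110 and 116 CPM in wild-type cells on palbociclib and 111, 130 and 126 CPM in knockout cells. Palbociclib libraries lay above vehicle libraries (log2 0.87 ± 0.06, adjusted p = 1.58e-09), while the genotypes overlapped and their difference of log2 0.17 ± 0.06 (adjusted p = 0.0405) was lost in 9 of 18 alternatives, with adjusted p up to 0.223 when set 1 of wild-type palbociclib was left out, and also without set 2 of vehicle, set 2 of wild-type palbociclib, or set 2 or 3 of the knockout (0.0561, 0.0824, 0.201 and 0.133). FBN2 (338 ± 15.5 CPM in wild-type cells on palbociclib), FBLN1 (173 ± 13.8 CPM), FBLN5 (17.1 ± 0.79 CPM) and FBLN2 (0.53 ± 0.05 CPM) were called in neither comparison. FBN2 was higher on the drug with the block (log2 0.15, adjusted p = 0.143, or 0.0114). Against vehicle, drug-treated knockout cells had more FBLN2 (log2 0.73, adjusted p = 0.0374), a call lost in 8 of 17 alternatives (adjusted p up to 0.159, without set 2 of vehicle), and less FBLN1 with the block (log2 -0.13, adjusted p = 0.131, or 0.00659).

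Of 5 basement membrane laminin chains and nidogens, 4 were higher in knockout cells and 0 lower (1 lower with the block), where 14.9% and 13.0% of all genes were called. LAMA4 (chr6:112108760-112254939), the laminin α4 chain of vessel and muscle basement membranes, had 1.14, 2.21 and 2.7 CPM on vehicle, 1.5, 2.13 and 3.45 CPM in wild-type cells on palbociclib, and 5.27, 7.19 and 8.8 CPM in knockout cells. Wild-type groups overlapped, and every knockout library lay above them. LAMA4 was 2.98-fold higher in knockout cells (log2 1.57 ± 0.36, adjusted p = 0.014), a call lost without set 2 of wild-type palbociclib (adjusted p = 0.0577), and did not pass on the drug (log2 0.25 ± 0.41, adjusted p = 0.672). LAMC1, the common laminin γ1 chain, had 494, 535 and 478 CPM on vehicle, 614, 639 and 613 CPM in wild-type cells on palbociclib and 705, 791 and 716 CPM in knockout cells. Its 3 groups did not overlap, with log2 0.31 ± 0.06 on the drug (adjusted p = 1.22e-04) and log2 0.25 ± 0.06 between genotypes (adjusted p = 0.00193). LAMB1 (laminin β1) rose from 114 ± 16.2 to 201 ± 23.3 CPM on the drug (log2 0.82 ± 0.15, adjusted p = 0.00379), and stood at 164 ± 23.0 CPM in knockout cells, a difference of log2 -0.29 that was not called (adjusted p = 0.206, or 2.18e-07 with the block). NID1 (nidogen-1), which links laminin to collagen IV, fell from 149 ± 7.50 to 110 ± 3.98 CPM (log2 -0.43 ± 0.05, adjusted p = 1.3e-06) and was at 125 ± 5.76 CPM in knockout cells (log2 0.19 ± 0.05, adjusted p = 0.011). The genotype call for NID1 was lost without set 1 of wild-type palbociclib or set 2 of the knockout (adjusted p = 0.0646 and 0.0597). NID2 was higher in knockout cells, at 2.44 ± 0.26 against 1.52 ± 0.10 CPM (log2 0.68 ± 0.17, adjusted p = 0.00545), but 30% of its exon bases are shared with RTRAF on the opposite strand, and the strand setting of the count is not given in the sources used here. Of the other members, SPARC shares 7.89% of exon bases with an opposite-strand gene and THBS1 4.89%.

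The set numbers were examined next, since they recur in every group. In a model of group and set, 19 of 37 members (51.4%) differed between sets, against 8.07% of all genes tested. In 17 of the 19, set 1 had the lowest mean, and in SDC1 and LAMC1 set 3 did. Set 1 was the lowest library in all 3 groups for 19 members (51.4%), and for 7.52% of all genes. Set 2 was so for 0 members and 4.76% of all genes, and set 3 for 3 members (8.11%) and 10.8% of all genes. The gap between the highest and lowest set, averaged over the groups, was 1.84-fold for LAMA4, 1.40-fold for HAPLN1, 1.39-fold for GPC3 and 1.34-fold for EDIL3, and 1.09-fold to 1.27-fold for the other 15. FN1, THBS1, SPOCK1 and LAMB1 all stood lowest in set 1, by 1.23-fold to 1.27-fold between sets. LUM, ACAN, EMILIN1 and EFEMP1 were not called between sets.

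All 8 transcripts used as a check of RNA quality and handling, mitochondrially encoded mRNAs and the nuclear RNAs MALAT1 and NEAT1, also differed between sets. The 6 mitochondrial mRNAs summed to 26534, 20703 and 27562 CPM in vehicle sets 1 to 3, 25674, 25617 and 31604 CPM in wild-type cells on palbociclib and 30392, 24506 and 29228 CPM in knockout cells. Set 2 was lowest in vehicle and knockout cells, and sets 1 and 2 were nearly equal in wild-type cells on palbociclib. NEAT1 was higher in knockout than in wild-type cells on the drug (log2 1.09, adjusted p = 0.00603). With the set as a block, 3 of the 8 transcripts were called higher on the drug, against 0 without it. Between genotypes 2 were called higher with the block, against 1 without it. The block called 0 lower in either comparison. The cause of these transcripts' differences was not tested. Their part in the members' differences was not tested. Without the 3 set 1 libraries, 19 members were higher and 6 lower on the drug, and 13 higher and 7 lower between genotypes, of which 9 were among the 11 called higher with all libraries. No share of all genes is given for that fit, so these counts have no share to be read against. The 19 include DCN, which passed the low-count filter there (log2 1.90, adjusted p = 0.0234).

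**Figure D5:**
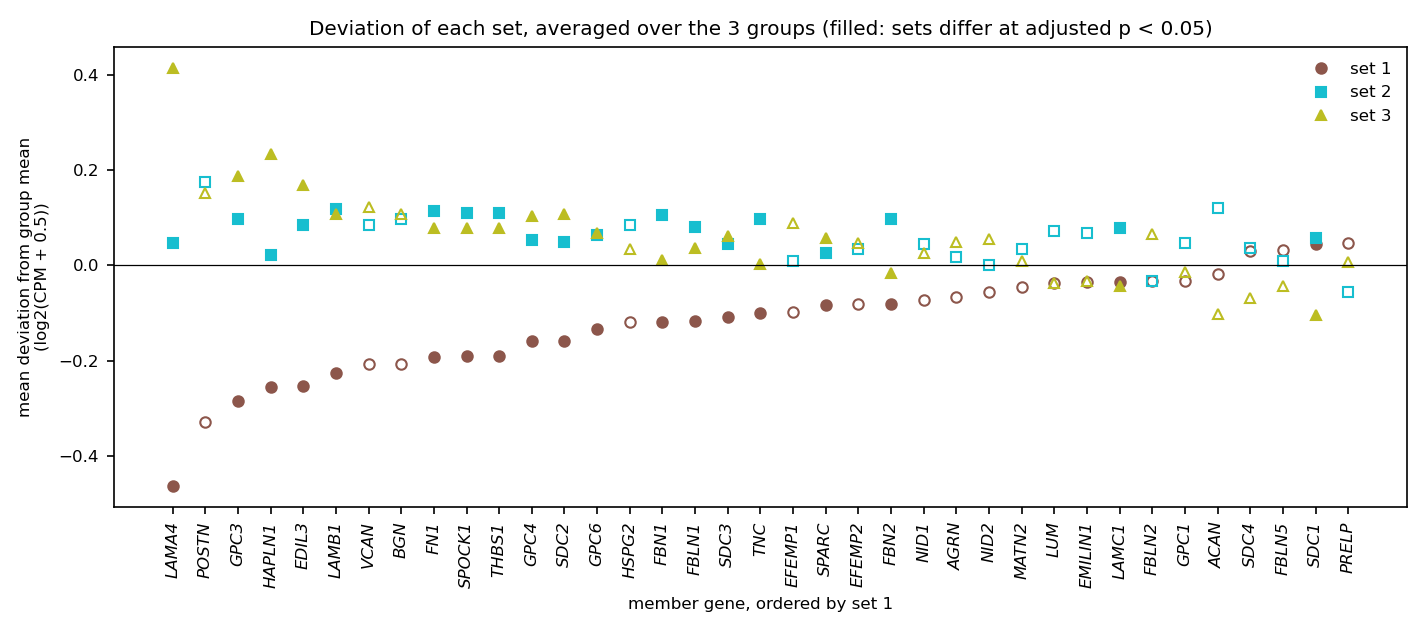
Mean deviation of sets 1 to 3 from the group mean, in log2(CPM + 0.5) averaged over the 3 groups (vertical axis), for the 37 tested members ordered by set 1 (horizontal axis); filled points mark the 19 members that differed between sets. Set 1 lies below 0 for all but 4 members (SDC4, FBLN5, SDC1 and PRELP).

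The other genes of these pathways were counted by list, to be read against the 21.3% of all genes called higher and 22.3% lower on the drug, and the 14.9% and 13.0% between genotypes. Of 14 tested enzymes of chondroitin and dermatan sulfate, 9 rose on the drug and 0 fell, and 1 was higher and 4 lower in knockout cells. CHPF, a chondroitin polymerising factor, rose from 75.7 ± 4.89 to 214 ± 6.06 CPM (2.82-fold, adjusted p = 2.49e-13), and UST, a uronyl sulfotransferase, from 5.82 ± 0.37 to 12.3 ± 0.47 CPM (log2 1.08 ± 0.09, adjusted p = 9.09e-09). CSGALNACT1, which starts chondroitin chains, was lower in knockout cells (log2 -0.60 ± 0.18, adjusted p = 0.0167; other genes within 5 Mb had a median of log2 -0.40 over 64 genes), as was CHPF2 (log2 -0.34 ± 0.07, adjusted p = 0.00102). Heparan sulfate enzymes were mixed: of 14 tested, 5 rose and 3 fell on the drug, and 2 were higher and 4 lower in knockout cells. With the block, 6 rose on the drug and 6 were lower in knockout cells. HPSE (heparanase) fell from 23.2 ± 1.58 to 12.0 ± 0.66 CPM (log2 -0.95 ± 0.13, adjusted p = 5.9e-05). SULF1, a sulfatase that removes 6-O-sulfates outside the cell, rose on the drug (log2 0.68 ± 0.21, adjusted p = 0.0128) and was higher in knockout cells (log2 0.56 ± 0.19, adjusted p = 0.0318). EXTL3, which starts heparan sulfate chains, went from 167 ± 11.3 to 95.6 ± 2.81 CPM between genotypes (log2 -0.81 ± 0.05, adjusted p = 9.02e-10), where other genes within 5 Mb had a median of log2 -0.67 over 60 genes. The part of such neighbourhood shifts in the genotype differences of these genes was not tested.

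Of 6 tested enzymes of the shared linker region, 2 rose and 0 fell on the drug (1 fell with the block; B4GALT7, log2 0.34 ± 0.07, adjusted p = 2.58e-04; B3GAT3, log2 0.20 ± 0.06, adjusted p = 0.0115), and 2 were higher and 1 lower in knockout cells. XYLT2, which attaches the first xylose, was higher there (log2 0.40 ± 0.07, adjusted p = 1.05e-04), and other genes within 5 Mb had a median of log2 0.33 over 121 genes. Of 9 genes for sugar nucleotide and sulfate donors, 4 rose and 1 fell on the drug (5 and 2 with the block), and 1 was higher and 2 lower in knockout cells. PAPSS2, which makes the sulfate donor, rose from 68.7 ± 9.04 to 108 ± 10.5 CPM (log2 0.66 ± 0.10, adjusted p = 2.97e-04), and UXS1, which makes UDP-xylose, rose by log2 0.48 ± 0.05 (adjusted p = 9.06e-08). Of 8 hyaluronan genes, 2 rose on the drug, CEMIP (log2 0.94 ± 0.14, adjusted p = 1.7e-05) and CEMIP2 (log2 0.51 ± 0.13, adjusted p = 0.0113), both implicated in hyaluronan breakdown. HYAL3 (log2 0.58 ± 0.09, adjusted p = 2.55e-05) and HYAL2 (log2 0.19 ± 0.06, adjusted p = 0.0128), hyaluronidase family members, were higher in knockout cells (3 higher and 1 lower with the block), beside a median of log2 0.20 over the 183 other genes within 5 Mb.

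Of 6 tested ADAMTS proteases that can cut proteoglycans, 1 rose and 2 fell on the drug, and 2 were higher and 1 lower in knockout cells. ADAMTS5, an aggrecanase, was higher in knockout cells, at 5.29 ± 0.78 against 3.17 ± 0.22 CPM (log2 0.73 ± 0.19, adjusted p = 0.00696), as was ADAMTS15 (log2 0.42 ± 0.08, adjusted p = 2.47e-04). Of 18 tested matrix receptors, 11 rose and 1 fell on the drug, and 3 were higher and 6 lower in knockout cells. With the block, 3 fell on the drug, and 7 were higher and 7 lower in knockout cells. ITGA3, an integrin subunit for laminin, rose from 544 ± 11.9 to 1050 ± 28.1 CPM (log2 0.95 ± 0.06, adjusted p = 1.08e-10), and ITGA11, a collagen-binding subunit, rose from 3.65 ± 1.51 to 10.1 ± 3.75 CPM (log2 1.48 ± 0.48, adjusted p = 0.045). DDR2, a collagen receptor kinase, was lower in knockout cells, at 64.6 ± 4.34 against 118 ± 6.37 CPM (log2 -0.87 ± 0.06, adjusted p = 1.45e-09), and the 84 other genes within 5 Mb had a median of log2 -0.62 there; its part was not tested.

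Of 8 other laminin chains, 6 rose (7 with the block) and 1 fell on the drug, among them LAMA2 (11.3 ± 1.40 to 23.3 ± 1.64 CPM, log2 1.04 ± 0.10, adjusted p = 1.23e-07), while 1 was higher (2 with the block) and 3 lower in knockout cells, among them LAMA5 (log2 -0.42 ± 0.10, adjusted p = 0.00661). Of 7 latent TGF-beta binding and microfibril-associated proteins, 4 rose on the drug (5 with the block) and 0 fell, and 0 were higher and 1 lower in knockout cells (2 and 2 with the block). MFAP5, which binds fibrillin, rose from 33.3 ± 0.44 to 73.1 ± 3.21 CPM (log2 1.14 ± 0.06, adjusted p = 6.37e-11) and was lower in knockout cells at 40.9 ± 4.09 CPM (log2 -0.84 ± 0.06, adjusted p = 4.45e-09), as LUM was, while the 130 other genes within 5 Mb had a median of log2 0.29. LTBP2 rose by log2 0.91 ± 0.13 (adjusted p = 8.53e-04). Of 6 TGF-beta ligands and receptors, 3 rose and 1 fell on the drug, and 2 were higher and 0 lower in knockout cells (1 lower with the block). TGFBR3 (betaglycan), itself a cell surface proteoglycan, went from 22.5 ± 1.91 CPM on vehicle to 9.53 ± 1.86 CPM in wild-type cells on palbociclib (log2 -1.24 ± 0.14, adjusted p = 2.06e-05) and 16.1 ± 2.61 CPM in knockout cells (log2 0.76 ± 0.14, adjusted p = 0.0019).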

How the data were processed

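The authors deposited raw counts of reads per gene, not normalized and not pooled, for 9 poly(A)-selected libraries. The submitters' processing notes name STAR 2.7.9a, Trim Galore, FastQC, CASAVA and DESeq2 and the build hg38. How reads were assigned to genes, with which annotation and strand setting, is not given in the sources used here; the split of reads between overlapping or near-identical genes could not be checked. Gene positions and exon lengths came from GENCODE 29. Counts were tested in R 4.3.3 with edgeR 4.0.16, with limma 3.58.1 for an alternative; tables and figures were made with matplotlib 3.10.9 under Python 3.11.15. The test used TMM factors (0.977 to 1.01), the default low-count filter (19408 genes, 99.91% of counts) and 1 robust quasi-likelihood model over the 3 groups, leaving 6 residual degrees of freedom and a biological coefficient of variation of 5.99%. P-values were adjusted by Benjamini-Hochberg over all genes tested and called under 0.05; the fit was tested on simulated data. SEs are the log2 fold change over the root of the F statistic. Replicate pairs had a chi-square of 3.73 to 12 for each degree of freedom, above that of repeat counts of a library. Levels of CPM per kilobase use all exon bases of a gene.

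Libraries of the same set correlated at 0.18 to 0.54 in their deviations from group means over 12932 genes (9 pairs), and libraries of different sets at -0.4 to 0.071. On these correlations, and not on a label, libraries that share a set number were treated as pairs in a blocked model. The main calls come from the fit without this block. Results of the blocked model are given where it changes the call of a member, or the counts of a pathway list on the drug or between genotypes. The members and lists were chosen with earlier results of these data known. Values in every library are given for members called with an absolute log2 fold change of at least 1 and a mean of at least 1 CPM in a group, and for the most abundant member of each role per exon length. The text names no more than 2 called genes per list and comparison, those that changed most among genes averaging 1 CPM or more. Some items are not reported here. Alternatives were RLE scaling, library totals, DESeq2 1.42.0, limma-voom, no filter, at least 1 CPM in 3 libraries, only the 6 libraries compared, the set as a block, each library left out in turn and, chosen after seeing the data, all set 1 libraries left out.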

Additional observations from a re-analysis of the deposited data

How the results depend on the processing

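The counts of members higher on the drug stayed within 1.5 times of 16 under every alternative, and no called member changed direction in any. With the replicate block, the pairing of libraries by set number, the members called lower went from 3 to 7 on the drug, from 5 to 8 between genotypes and from 3 to 7 for treated knockout cells against vehicle; it changed no other call of a member than those given beside the results. Leaving out all set 1 libraries, they were 6 on the drug and 6 against vehicle. Leaving out each library in turn gave 3 to 5 members lower on the drug (5 without set 1 of vehicle), 7 to 13 higher between genotypes (7 without set 2 of the knockout), 3 to 8 lower against vehicle (8 without set 1 of vehicle) and 13 to 21 differing between sets. The causes were not tested. Shares of all genes are not given for the alternatives, so their counts of members have no share to be read against. Some members not called in the report were called with 1 library left out. On the drug these were GPC4 (adjusted p = 0.00849) and EDIL3 (0.0394) without set 1 of vehicle, FBN2 (0.0044) without set 2 and BGN (0.0453), POSTN (0.044) and EFEMP1 (0.0114) without set 3, SDC2 (0.00422) and POSTN (0.00435) without set 1 of wild-type palbociclib, and FBLN5 (0.0419) without its set 3. Between genotypes these were GPC3 (0.0389) and THBS1 (0.0172) without set 1 of vehicle, SDC2 (0.0415) without set 1 of wild-type palbociclib, GPC3 (0.0153), THBS1 (0.0022) and MATN2 (0.00827) without set 1 of the knockout, and BGN (0.0211) without its set 2. For treated knockout cells against vehicle these were VCAN (0.0421), GPC3 (0.0228), GPC4 (0.00562), EDIL3 (0.0394) and FBLN1 (0.03) without set 1 of vehicle, FBN2 (0.0167) without its set 2, FBLN1 (0.0428) without set 2 of the knockout and GPC4 (0.0326) without its set 3. DCN is counted where it passed the filter. THBS1 was also called between genotypes with DESeq2 (0.0406), at least 1 CPM in 3 libraries (0.0468) or only the 6 libraries (0.0455). Without a filter GPC4 (0.0182), SDC2 (4.74e-04; DESeq2 0.0279), POSTN (0.0227) and FBN2 (0.0107) were called on the drug, GPC3 (0.0379) between genotypes and GPC4 (0.00527) against vehicle. Low counts limit DCN, FMOD, THBS2, ELN, POSTN and VCAN.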

Other observations

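CHST15, which adds a second sulfate to chondroitin chains, was picked out after its values were seen. It had 36, 31 and 39 counts in vehicle sets 1 to 3 and 27, 31 and 32 counts in wild-type cells on palbociclib, but 1, 0 and 0 counts in knockout cells. The knockout libraries did not overlap the others (adjusted p = 1.3e-07 against treated wild-type cells, edgeR), at under 1 CPM in every group mean.

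Some members neighbour each other. LUM rose on palbociclib at log2 1.63, as did DCN in the fit without a low-count filter (log2 2.10), and they lie 28.7 kb apart on chromosome 12. VCAN, HAPLN1 and EDIL3 lie in a row on chromosome 5, with gaps of 55.5 and 219 kb. HAPLN1 and EDIL3 were both lowest in set 1 of each group and highest in set 3 on average, while VCAN, under 1 CPM, was not called between sets.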
